A study of Homo sapiens with 12 samples.

Results

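The genes that encode the chains of collagen were examined for active chromatin marks in a liver cancer line. They were taken as the protein-coding RefSeq genes whose symbol is COL, a number, A and a number, which gave 44 of 19974 protein-coding genes on the autosomes and the X chromosome. Collagens are triple helices whose chains are wound in the endoplasmic reticulum, secreted, trimmed and crosslinked outside the cell. Fibril-forming types give tissues their tensile strength, type IV builds the sheet of basement membranes, and other classes decorate fibrils, anchor them or span the cell membrane. In the liver, fibrillar collagen is mainly a product of activated stellate cells and fibroblasts, whereas hepatocytes are epithelial cells that secrete plasma proteins.

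The cells were Huh7, an established hepatocellular carcinoma line of wild-type genotype, kept for 48 h in a custom choline-free DMEM in which B-27 supplement replaced fetal bovine serum. Both groups shared that medium and differed in added choline, at 0 or 15 µM. Chromatin was immunoprecipitated for H3K27ac, a histone acetylation of active promoters and enhancers, or for H3K4me1, a histone methylation found at active and poised enhancers. Each mark at each dose had 1 library, so a difference between doses compares 2 libraries, with no replicate spread to set it against. A summit is the 1 position that the authors' peak calling gave to a peak, and its score is a −log10 p-value or q-value. The H3K27ac lists held 37946 summits at 0 µM and 29305 at 15 µM, a ratio of 0.772, and the H3K4me1 lists 343156 and 349202, a ratio of 1.02. Of 12 hepatocyte markers, 9 had H3K27ac at a gene end without choline and 10 with it, among them ALB and AFP. Of 10 stellate cell and fibroblast markers, 0 had it at either dose, and their windows held 5 distinct H3K27ac summits at 0 µM and 1 at 15 µM. PECAM1 was the only one of 6 endothelial markers with H3K27ac at an end, at both doses. Among 5 blood cell markers CD3E had it at 15 µM. Of all protein-coding genes 28.3% had it at 0 µM and 16.2% at 15 µM, and the marker lists are short.

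Collagen gene ends almost all lacked H3K27ac. A gene end means either annotated end of the gene, and it had a mark when a summit lay within 1 kb. At 0 µM choline 2 of 44 collagen genes had H3K27ac there, COL5A2 and COL12A1, which is 4.55% (exact Clopper-Pearson 95% interval 0.555 to 15.5), against 28.3% of all protein-coding genes. At 15 µM it was 1 of 44, COL5A2, or 2.27% (0.0575 to 12.02), against 16.2%. Intervals cover counting error only, and neighbouring members that share a stretch of DNA are not independent. COL12A1 counted as having lost its mark, with no summit within 2 kb at 15 µM, which is 1 of the 2 marked at 0 µM, against 43.9% of marked genes overall. Its nearest 15 µM summit was 6603 bp from that end, and the count of lost ends was 0 with absence required within 10 kb, and 0 with lists of equal length. None of the collagen ends marked at 15 µM was gained (0 of 1, against 10.5%).

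The COL12A1 mark did not lie at its known start, and no start was known for COL5A2. COL12A1 encodes a fibril-associated chain. Its summit, with a score of 6.53 in a list whose lowest score was 5.02, lay 818 bp from the end opposite to its transcript start, and 120909 bp from that start. COL5A2 encodes a chain of type V collagen, which sets the diameter of type I fibrils. The COL5A2 summit lay 141 bp from the gene's upper end at 0 µM, with a score of 16.0, and 231 bp from it at 15 µM, with a score of 12.1. That end is 362 bp from the start of WDR75, a ribosome biogenesis factor, and the same summits lay 222 and 132 bp from the WDR75 start. Whether the upper end of COL5A2 is itself a transcript start was not examined. The genes just outside the 1 kb limit at 0 µM were COL27A1 at 1557 bp and COL26A1 at 1658 bp from an end.

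Transcript starts were known for 32 of the 44 genes from the RefSeq promoter table. Of these 32, 1 had H3K27ac within 1 kb of a start at 0 µM (3.13%, 0.0791 to 16.2), against 30.6% of all genes with a start in the table. At 15 µM it was 0 of 32, which allows a share of up to 10.9% by the same interval, against 17.4%. The gene was COL27A1, a fibrillar collagen of cartilage, with a summit 118 bp from its start and a score of 6.64. Its nearest 15 µM summit was 35549 bp away. COL26A1 came next at 0 µM, at 1171 bp, and its nearest 15 µM summit was 144594 bp from the start. The 12 genes without a start in the table include COL1A1, COL1A2 and COL3A1, which encode the chains of the main fibrillar collagens, and COL5A2. Only their annotated ends could be used.

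The sequences below, from RefSeq (GRCh38.p14), show the promoter bases beside the summits just described and those of COL21A1. Also shown are the intergenic promoters of the type IV pairs, which lacked H3K27ac. COL27A1 met the rule for printing a promoter, and the others were chosen after their values were seen. Capitals mark GC boxes (GGGCGG, or CCGCCC on the other strand) and CACCC boxes (CCACCC, or GGGTGG), the kinds of sites bound by SP and KLF factors. The first is the 250 bases upstream of COL27A1, chr9:114155287-114155536, plus strand. The next is upstream of WDR75 beside the end of COL5A2, chr2:189441224-189441473, plus strand, and it contains the H3K27ac summit of both doses. The last before the pairs is upstream of COL21A1, chr6:56394129-56394378, minus strand. The nearest H3K27ac summits to that COL21A1 start lay 5365 bp away at 0 µM and 4008 bp at 15 µM.
COL27A1: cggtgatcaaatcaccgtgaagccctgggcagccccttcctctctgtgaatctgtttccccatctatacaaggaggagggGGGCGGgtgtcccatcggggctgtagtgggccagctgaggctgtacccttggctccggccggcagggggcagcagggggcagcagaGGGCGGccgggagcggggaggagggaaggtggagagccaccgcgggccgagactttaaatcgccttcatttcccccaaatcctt
WDR75: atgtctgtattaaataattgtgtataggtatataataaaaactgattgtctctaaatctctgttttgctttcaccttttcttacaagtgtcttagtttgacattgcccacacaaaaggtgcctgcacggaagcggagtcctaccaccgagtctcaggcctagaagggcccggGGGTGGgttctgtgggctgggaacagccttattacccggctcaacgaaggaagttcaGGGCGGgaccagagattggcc
COL21A1: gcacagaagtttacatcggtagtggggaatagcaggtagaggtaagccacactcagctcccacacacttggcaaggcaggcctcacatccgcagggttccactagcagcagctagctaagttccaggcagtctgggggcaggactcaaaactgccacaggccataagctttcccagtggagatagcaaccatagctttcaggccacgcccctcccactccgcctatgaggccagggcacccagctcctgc

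The 6 type IV genes lie in 3 head-to-head pairs that start from a shared stretch. Plus-strand sequences are given for all of the 126 bases between COL4A1 and COL4A2, chr13:110307158-110307283, for the 135 bases between COL4A4 and COL4A3, chr2:227164489-227164623, and for 250 of the 379 bases between COL4A6 and COL4A5, chrX:108439588-108439837.
COL4A1-COL4A2: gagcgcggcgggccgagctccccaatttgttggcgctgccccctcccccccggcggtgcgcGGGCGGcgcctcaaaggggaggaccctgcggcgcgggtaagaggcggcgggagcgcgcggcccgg
COL4A4-COL4A3: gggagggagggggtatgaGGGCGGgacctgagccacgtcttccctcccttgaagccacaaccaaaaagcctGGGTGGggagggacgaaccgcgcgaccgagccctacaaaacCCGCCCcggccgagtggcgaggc
COL4A6-COL4A5: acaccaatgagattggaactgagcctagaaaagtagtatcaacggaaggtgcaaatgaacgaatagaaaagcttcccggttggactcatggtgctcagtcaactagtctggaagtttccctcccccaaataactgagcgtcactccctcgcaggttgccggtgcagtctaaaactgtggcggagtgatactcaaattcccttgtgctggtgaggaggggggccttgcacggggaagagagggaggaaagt

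The stretch of COL27A1 held 2 GC boxes, that of WDR75 1 GC box and 1 CACCC box, and that of COL21A1 neither. Between COL4A1 and COL4A2 there was 1 GC box, and between COL4A4 and COL4A3 there were 2 with 1 CACCC box. The COL4A6-COL4A5 stretch held neither. Over the 300 bases of each table promoter, searched on both strands, a GC box was present in 24 of 44 promoters of the 32 collagen genes (54.5%) and in 56.3% of all 22132. A CACCC box was present in 23 (52.3% against 37.7%), CCAAT in 14 (31.8% against 34.6%) and TATAAA in 8 (18.2% against 9.46%). These matches are descriptions of letters, and several promoters belong to 1 gene.

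Around the collagen genes, H3K27ac was sparse and fewer summits were listed at 15 µM. Within 50 kb of the gene ends there were 78 distinct H3K27ac summits at 0 µM and 54 at 15 µM. The ratio of 0.692 (95% interval 0.480 to 0.992, counting error only) includes the 0.772 of the whole lists. In a short gene the windows of both ends overlap and were merged. The median collagen gene, being longer, was thus searched over more bases than the median of all genes. Window counts of the collagen genes and of all genes therefore cover unlike lengths. At 0 µM 29 genes had at least 1 summit (65.9%, against 65% of all genes) and 6 had at least 5 (13.6%, against 24.2%). At 15 µM 19 had at least 1 (43.2%, against 51.2%) and 4 had at least 5 (9.09%, against 15.6%). The median gene had 1 summit at 0 µM and 0 at 15 µM, while the median of all genes was 2 and 1. After scaling the 0 µM count to the length of the 15 µM list, 10 genes had more at 15 µM (22.7%, against 24.4%) and 20 had fewer (45.5%, against 42.8%). The median scaled difference was 0 for the collagen genes and for all genes. In both directions the share of collagen genes was within 3 percentage points of that of all genes.

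Collagen genes are long, with a median of 144.7 kb against 24.2 kb for all genes. Per length of annotated gene, their bodies held 6.90 H3K27ac summits per Mb at 0 µM and 4.89 at 15 µM, against 19.2 and 15.0 over all genes. Genes of like length were not compared, so the part that gene length has in this gap was not tested. COL5A2 alone supplied 21 of 48 body summits at 0 µM and 15 of 34 at 15 µM. Without COL5A2, a setting chosen after its values were seen, the bodies held 4.12 and 2.90 per Mb. Of the window summits, 61.5% at 0 µM (49.8 to 72.3) had H3K4me1 of the same dose within 1 kb, against 65.2% of the whole list. At 15 µM the share was 68.5% (54.5 to 80.5), against 58.6%. A 15 µM summit lay within 500 bp of 32.1% of the 0 µM summits (21.9 to 43.6), against 38.7% of that list, and a 0 µM summit within 500 bp of 53.7% of the 15 µM ones (39.6 to 67.4), against 50.7%.

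**Figure D1:**
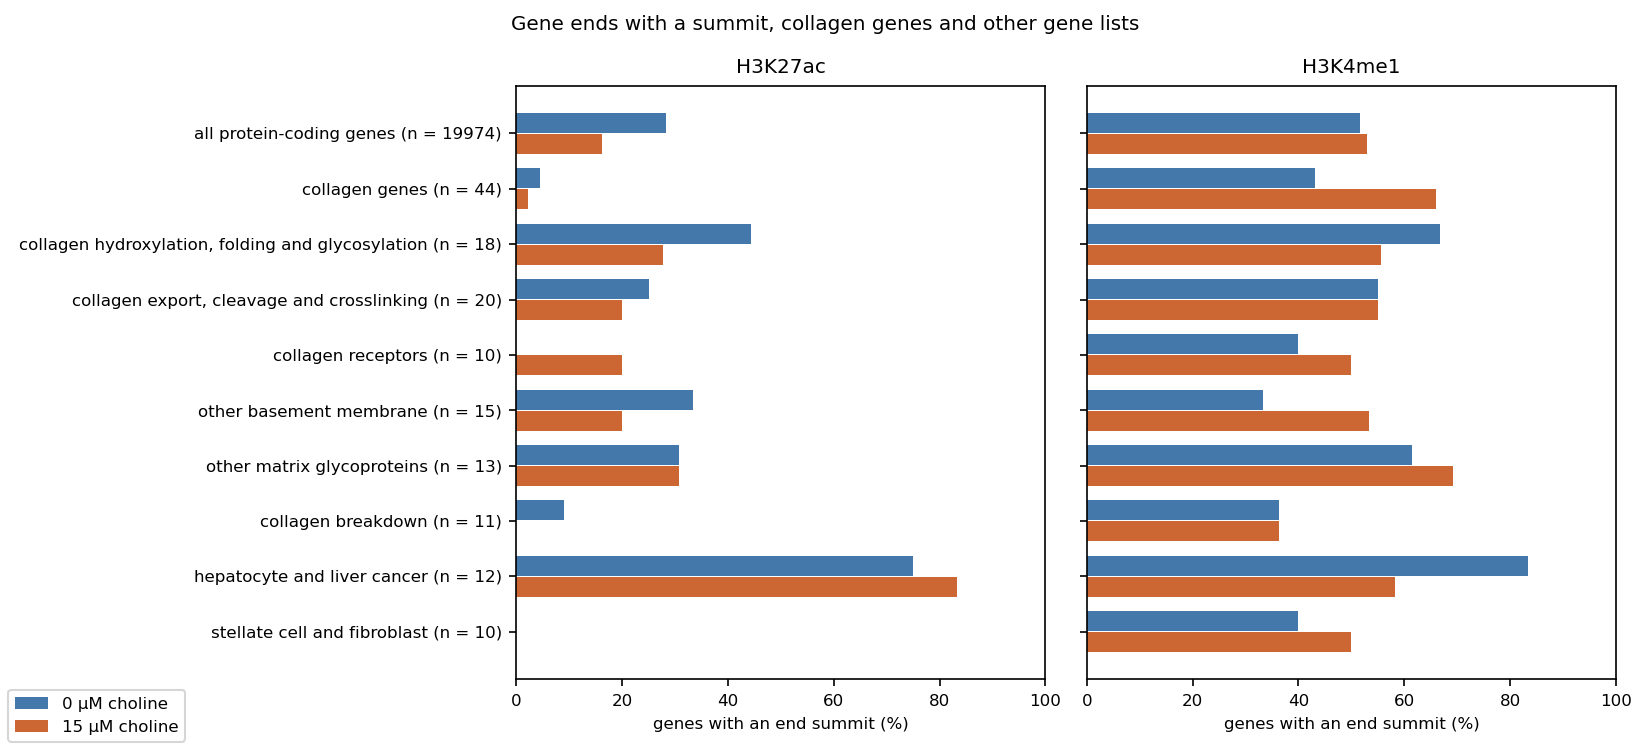
Bars give the percentage of genes in each list with a summit within 1 kb of either gene end, for H3K27ac (left) and H3K4me1 (right), at 0 µM (blue) and 15 µM choline (orange), 1 library each and no error bars. The collagen bars for H3K27ac are at 4.55% and 2.27%, below the 28.3% and 16.2% of all protein-coding genes, and those of the hepatocyte markers are at 75.0% and 83.3%.

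The 11 fibril-forming collagens held 23 distinct H3K27ac summits in their windows at 0 µM and 17 at 15 µM. COL1A2, the alpha-2 chain of type I collagen, had 4 and 5, in a 9.32 kb stretch that began 8944 bp beyond the gene's upper end at 0 µM and 9883 bp at 15 µM. All of these COL1A2 summits had H3K4me1 within 1 kb, and none had an H3K27ac summit of the other dose within 500 bp. COL11A1, a chain of cartilage fibrils, had 1 summit at 0 µM and 4 at 15 µM inside the gene, all within 2.40 kb. Its 0 µM summit, with a score of 22.1, and a 15 µM summit with a score of 7.69 were at the same base. The 4 at 15 µM are thus neighbours at 1 place. COL3A1, which forms fibrils with type I collagen, had 3 and 0, but 2 of the 3 lay inside the neighbouring COL5A2. COL27A1 had 8 and 4. Of these, 4 at 0 µM and all 4 at 15 µM were nearer to an end of KIF12, a kinesin gene, than to COL27A1, and 1 at 0 µM was nearest to ORM2, an acute-phase plasma protein gene. Its 3 summits at the COL27A1 start side of the gene were seen at 0 µM only. COL5A1 was the fibril-forming gene without a window summit at either dose.

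COL5A2 had the most H3K27ac summits inside its body of the 44 genes at both doses, most of them beyond the reach of the windows. Per length COL12A1 had more at 15 µM, with 4.93 per 100 kb against 3.67, and at 0 µM they had 4.93 and 5.13. A stretch of 33.5 kb held 13 summits at 0 µM and 11 at 15 µM, with the highest scores 46.7 and 48.5 in lists whose medians were 10.9 and 10.3. These highest-scoring summits were 101 bp apart. A second stretch of COL5A2, 14.5 kb long, held 5 and 3 summits. The promoter table gives no start for COL5A2, so whether a transcript start lies in either stretch was not examined. By the window measure COL5A2 had only 3 and 1 summits, which shows what a window around gene ends leaves out in a long gene.

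The fibril-associated collagens, which coat or bridge fibrils, held 27 and 21 distinct H3K27ac window summits over 10 genes. COL12A1 and COL21A1 supplied 15 of them at 0 µM and 14 at 15 µM. COL12A1 had 8 and 7, of which 6 at each dose lay within 29.2 kb inside the gene, on the side away from its start. The highest score there was 24.3 at 0 µM and 12.3 at 15 µM. COL21A1, a fibril-associated chain, had 7 and 7 in 22.98 kb around its outermost start, at most 12499 bp from it. Its highest-scoring summit, 53.4 at 0 µM and 27.2 at 15 µM, lay 5365 and 5092 bp upstream of that start, while no summit lay within 1 kb of it. The score of 53.4 was the highest of the 78 collagen window summits at 0 µM. COL9A3, a chain of cartilage type IX collagen, had 5 and 2 summits, all nearest to ends of MRGBP, OGFR or DIDO1. COL19A1 had 1 and 3 in its windows, all nearest to LMBRD1, a lysosomal cobalamin transporter gene, and within 1.82 kb of each other. COL22A1 had none.

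The type IV network and the type VI beaded filaments had few H3K27ac summits around their genes. Of 6 type IV genes 5 had no H3K27ac window summit at either dose, and COL4A3 had 3 and 1, none closer than 22807 bp to its end opposite to the start. The nearest H3K27ac summit to the COL4A1 start was 405043 bp away at 0 µM, and 172975 bp for COL4A3. Of 5 type VI genes, which form beaded microfibrils around cells, 4 had none, and COL6A6 had 1 at 0 µM. The short-chain network genes held 9 and 9. COL10A1, the collagen of growth plate cartilage, had 7 of these at each dose, and every one was nearer to an end of FRK, NT5DC1 or DSE than to one of COL10A1.

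Among the remaining classes, COL18A1, the basement membrane chain that releases endostatin, had 5 and 2 window summits of H3K27ac. At 0 µM 4 lay in the gene 14067 to 16899 bp past its second start, with the highest score 50.5. At 15 µM the highest-scoring, 32.2, lay 58 bp from it and was the highest of the 54 collagen window summits of that list. The place of highest score within COL18A1 was thus shared by both doses. COL23A1, a transmembrane collagen, had 3 and 0, all nearest to its neighbours PHYKPL and CLK4. COL7A1, which forms the anchoring fibrils of skin, had 1 and 0. The 14 genes with no H3K27ac window summit at either dose were COL4A1, COL4A2, COL4A4, COL4A5, COL4A6, COL5A1, COL6A1, COL6A2, COL6A3, COL6A5, COL13A1, COL15A1, COL22A1 and COL25A1.

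The largest positive scaled differences in H3K27ac were those of COL11A1 (3.23 summits), COL19A1 (2.23), COL1A2 (1.91), and COL21A1 and COL10A1 (1.59 each). The largest negative ones were those of COL3A1 and COL23A1 (-2.32 each), COL27A1 (-2.18), and COL18A1 and COL9A3 (-1.86 each). With summits scoring at least 10, the values of COL27A1 and COL9A3 turned to 1.28 and 0.55. Within 20 kb those of COL3A1, COL23A1, COL18A1, COL11A1 and COL19A1 were 0. All are differences of at most 4 summits between 2 libraries. COL21A1 and COL10A1 had equal counts at both doses, so their positive values come from scaling to the shorter 15 µM list.

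**Figure D2:**
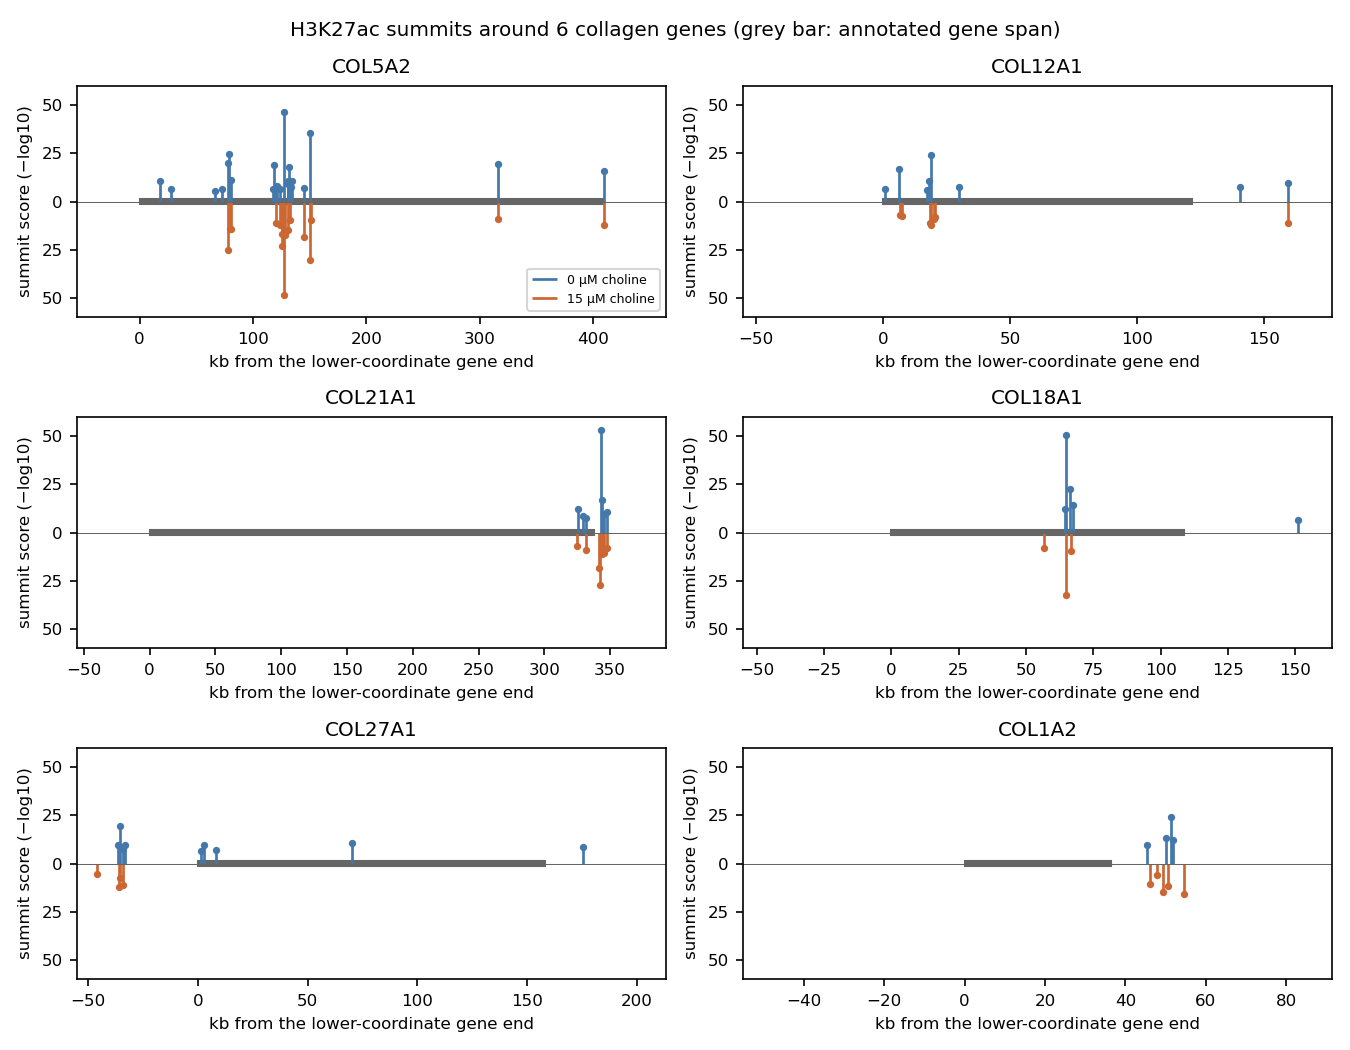
Each stem is 1 H3K27ac summit around 6 collagen genes, placed by its distance in kb from the lower-coordinate gene end, with its −log10 score drawn upward at 0 µM and downward at 15 µM choline; the grey bar is the annotated gene. Summits cluster inside COL5A2, COL12A1 and COL18A1, beside the upper end of COL21A1 and beyond that of COL1A2, at both doses, while those at the lower end of COL27A1 appear at 0 µM only.

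H3K4me1 was common at the same genes. At 0 µM 19 of 44 collagen genes had an H3K4me1 summit within 1 kb of a gene end (43.2%, 28.4 to 59.0), against 51.6% of all genes. At 15 µM it was 29 of 44 (65.9%, 50.1 to 79.5), against 52.9%. Of the 31 with an H3K4me1 end at either dose, 29 had no H3K27ac end at either (93.5%, against 63.1%). Only 2 of the 44 collagen genes had an H3K27ac end at either dose, so any 31 of them would include at least 29 without. The 93.5% thus restates that scarcity and shows nothing particular to the genes with H3K4me1. Of the 29 at 15 µM, 12 had no H3K4me1 within 1 kb at 0 µM (41.4%, against 30.7%), and 5 of them, COL6A1, COL8A1, COL13A1, COL14A1 and COL15A1, had none within 2 kb at 0 µM (5 of 29, 17.2%, against 10.9%). With absence required within 10 kb, 1 of these 5 was left. The ends of COL20A1 and COL6A2 were lost (2 of 19, 10.5%, against 8.92%). At transcript starts 15 of 32 genes had H3K4me1 at 0 µM (46.9%, against 45.4%) and 18 of 32 at 15 µM (56.3%, against 45.1%).

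The larger number of marked ends at 15 µM was seen only with low-scoring summits included and at the shorter distances. With a score of at least 5, the collagen genes with an H3K4me1 end numbered 6 at each dose. That is 13.6%, against 19.8% of all genes at 0 µM and 18.5% at 15 µM. Within 2 kb in place of 1 kb they numbered 29 at 0 µM (65.9%, against 73.5%) and 30 at 15 µM (68.2%, against 75.2%). In both settings the collagen share at 15 µM was below that of all genes. The 12 ends seen at 15 µM only had a median top score of 2.56, and those of COL14A1 and COL1A2, at 5.48, were the highest. Just inside the limit were COL17A1 at 941 bp at 0 µM and COL28A1 at 1000 bp at 15 µM. Just outside were COL5A2 at 1111 bp and COL26A1 at 1425 bp. COL28A1 had the highest-scoring H3K4me1 end at both doses, 18.2 and 19.8, and COL12A1 and COL16A1 also scored over 5 at both.

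In the windows, the collagen genes held 841 distinct H3K4me1 summits at 0 µM and 920 at 15 µM. The ratio of 1.09 (0.995 to 1.203) includes the 1.02 of the whole lists. The median was 17.5 summits at 0 µM and 20.5 at 15 µM, beside 20 and 21 over all genes, whose windows mostly cover fewer bases. The scaled difference was above 0 in 31 of 44 genes (70.5%, against 48.9%), with a median of 1.91, against -0.02 over all genes. With summits scoring at least 5, it was above 0 in 19 genes (43.2%, against 49.5%), with a ratio of 0.983 beside 0.959 for the lists. Within 20 kb it was above 0 in 50% of collagen genes, against 45.9%. The higher count at 15 µM was therefore seen with the low-scoring summits included and in the wider windows.

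The 5 genes with the most H3K4me1 window summits, summed over both doses, were COL18A1 with 58 at 0 µM and 60 at 15 µM, COL27A1 with 55 and 51, COL12A1 with 45 and 58, COL10A1 with 53 and 38, and COL28A1 with 36 and 46. The lowest was COL22A1 with 1 and 2. The largest positive scaled differences were 12.2 for COL12A1, 10.7 for COL14A1 (19 and 30 summits), 9.72 for COL23A1 (16 and 26), 9.44 for COL21A1 (32 and 42) and 9.37 for COL28A1. The largest negative ones were -15.9 for COL10A1, -10.7 for COL17A1 (40 and 30), a hemidesmosome collagen, -9.32 for COL16A1 (18 and 9), -6.56 for COL19A1 (32 and 26) and -6.35 for COL9A1 (20 and 14). With summits scoring at least 5, the scaled difference of COL12A1 was -1.38, that of COL17A1 6.29 and that of COL16A1 1.12. Within 20 kb COL21A1 was at -3.37 and COL28A1 at -2.25. COL23A1 had fewer H3K27ac and more H3K4me1 summits at 15 µM, by raw and by scaled counts. By raw counts COL12A1 had 1 fewer H3K27ac and 13 more H3K4me1, but its scaled H3K27ac difference was above 0, at 0.82.

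The type IV pairs differed in H3K4me1 at their shared starts. For COL4A3 and COL4A4 a summit lay 500 and 89 bp from the starts at 0 µM, and 661 and 545 bp at 15 µM. For COL4A5 the nearest was 1154 bp away at 0 µM and 119 bp at 15 µM. For COL4A1 and COL4A2, whose chains form the main basement membrane network, it was 1759 and 1886 bp at 0 µM and over 80 kb at 15 µM, at 80880 and 80753 bp. The closest H3K27ac summit to any type IV start was the one 172975 bp from that of COL4A3 at 0 µM. COL4A1 and COL4A2 were the pair without H3K4me1 within 1 kb of a start at either dose.

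**Figure D3:**
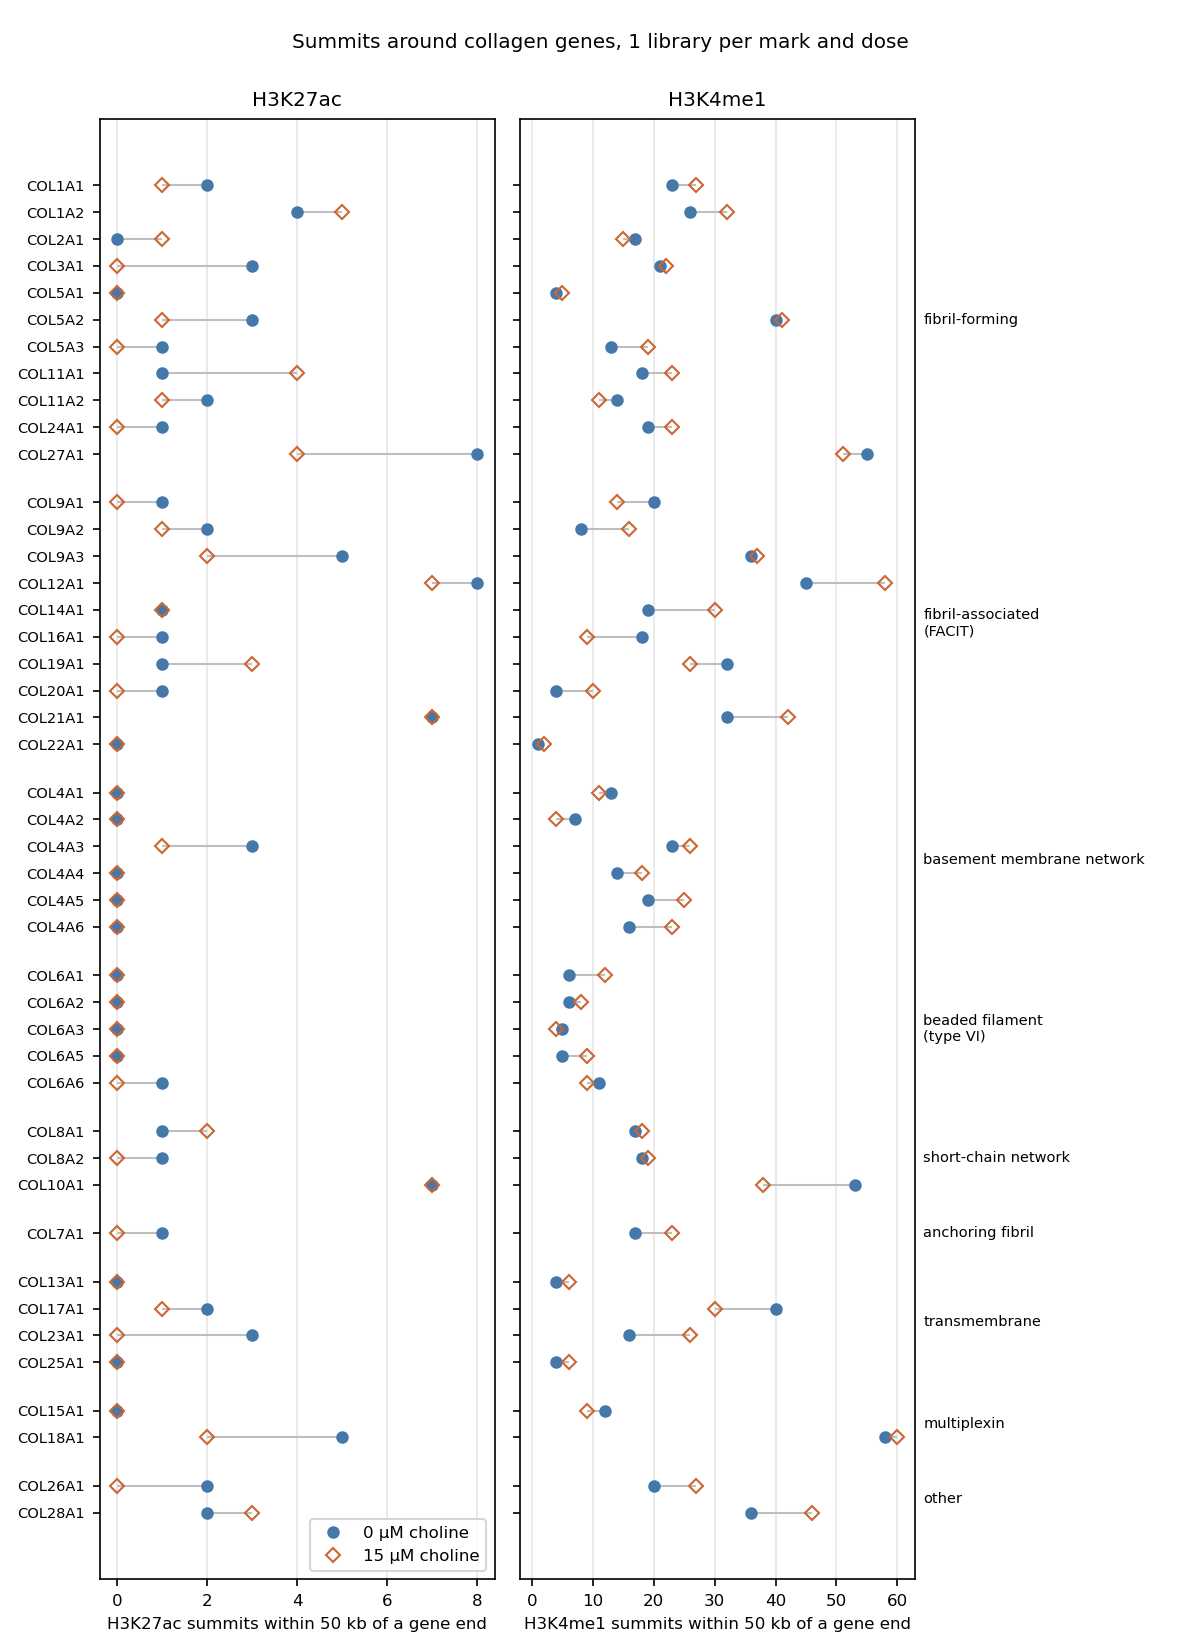
Summits within 50 kb of either gene end for each of the 44 collagen genes, grouped by class, for H3K27ac (left) and H3K4me1 (right), at 0 µM (filled circles) and 15 µM choline (open diamonds), 1 library each. H3K27ac counts range from 0 to 8 with 14 genes at 0 for both doses, and H3K4me1 counts from 1 to 60.

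**Figure D4:**
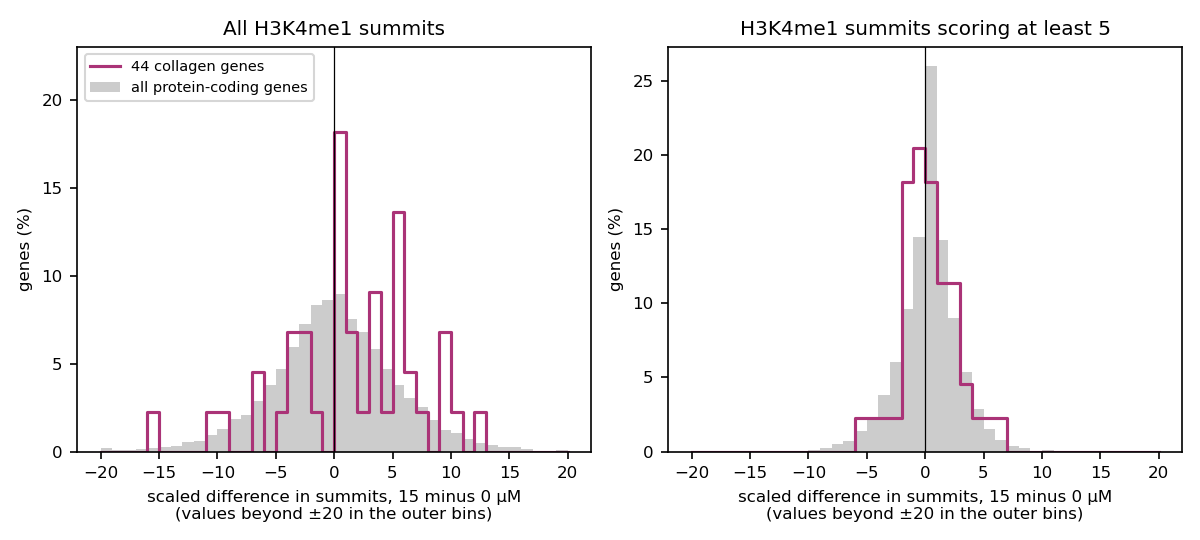
Percentage of genes by the scaled difference in H3K4me1 window summits, 15 minus 0 µM, for all protein-coding genes (grey) and the 44 collagen genes (line), with all summits (left) and with those scoring at least 5 (right). With all summits the collagen genes lie above 0 in 31 of 44 cases, and with the higher-scoring ones in 19.

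The enzymes and carriers that make collagen were counted in the same way, beside the 28.3% of all protein-coding genes with an H3K27ac end at 0 µM and the 16.2% at 15 µM. In the list for hydroxylation, folding and glycosylation, 8 of 18 genes had an H3K27ac end without added choline (44.4%) and 5 with 15 µM (27.8%). They included P4HA1 and P4HB, subunits of prolyl 4-hydroxylase, PLOD2 and PLOD3, lysyl hydroxylases, P3H1, a prolyl 3-hydroxylase, and PPIB, a prolyl isomerase. The ends of P4HB, P3H1 and SERPINH1, the collagen chaperone HSP47, were lost at 15 µM. That is 3 of the 8 marked at 0 µM, against 43.9% of all marked protein-coding genes. For export, cleavage and crosslinking it was 5 of 20 at 0 µM (25%) and 4 at 15 µM (20%), shares near those of all genes, with MIA2, SEC23A, SEC24D, SAR1A and SAR1B, all of the secretory route, at 0 µM. SEC24D and SAR1A were lost (2 of 5, against the same 43.9%). ADAMTS3, a procollagen peptidase, was gained (1 of the 4 marked at 15 µM, against 10.5%). At 15 µM the H3K4me1 ends of these lists, 55.6% and 55%, were a smaller share than the 65.9% of the collagen genes. At 0 µM they were a larger share, 66.7% and 55% against 43.2%. Over all protein-coding genes the H3K4me1 share was 51.6% at 0 µM and 52.9% at 15 µM. None of LOX and its 4 relatives, which crosslink collagen, had H3K27ac at an end.

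Genes of other matrix proteins and of collagen contacts were counted too, beside the same 28.3% (0 µM) and 16.2% (15 µM) of all protein-coding genes. Of 15 other basement membrane genes, 5 had an H3K27ac end at 0 µM (33.3%) and 3 at 15 µM (20%), shares near those of all genes. LAMB1, LAMB2 and NID1 had it at both doses. Of 13 other matrix glycoproteins, 4 had it at each dose (30.8%), with FN1, VTN and FBLN1 at both. FN1 and VTN encode fibronectin and vitronectin, plasma proteins that hepatocytes make. Among 10 collagen receptors, 0 had it at 0 µM and 2 at 15 µM (20%), ITGA1 and ITGB1. Neither counted as gained, because a 0 µM summit lay within 2 kb of an end. Their windows held 13 and 18 H3K27ac summits at 0 µM, and 10 and 12 at 15 µM. Among 11 genes of collagen breakdown, MMP14 had it at 0 µM (9.09%) and none at 15 µM. These counts are descriptions of lists of 10 to 20 genes, with no test of their difference from the collagens, and the part that gene length and cell type have in them was not tested.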

How the data were processed

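The series lists 12 samples, of which the 4 ChIP-seq libraries with summit lists were used, 1 per mark and dose. The other 8 (4 inputs, 3 RNA-seq, 1 KLF5 CUT&Tag) were not analysed here. Bowtie, Picard, deepTools and MACS2 and the build hg38 come from the submitters' processing notes. Settings, and whether inputs were used, are not given in the sources used here. In the lists the authors deposited, each summit has a score, read as a −log10 p-value or −log10 q-value. Which it is, and the read depth, are unknown. The lowest scores were 5.02 and 5.01 for H3K27ac and 1.31 and 1.30 for H3K4me1, so the marks have different limits.

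Summits on chromosomes 1 to 22 and X were counted near RefSeq genes (GRCh38.p14): within 1 kb of either gene end, of a transcript start in the promoter table (32 of 44 genes), and within 50 kb of either end. Overlapping windows of a gene were merged, so windows of long genes cover more bases. A mark was lost or gained when the other dose had none within 2 kb. The scaled difference is the 15 µM count minus the 0 µM count times the ratio of list lengths. Shares have exact 95% intervals. No test between doses was made. Members and lists were chosen with earlier results of these data known. Named genes are those with an H3K27ac end, the 5 extremes of each mark's counts and differences, and genes with no summit. Others, including neighbours, were chosen after their values were seen. Counting was tested on simulated data. Python 3.11.15, pandas 2.3.3, numpy 2.4.6 and scipy 1.17.1 were used.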

Additional observations from a re-analysis of the deposited data

How the results depend on the processing

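Of 104 alternative values of the main results, 57 stayed the same (counts within 1.5 times), 46 moved and 1 reversed. Of 100 for single genes, 89 were labelled the same, 4 moved and 7 reversed. For single genes, the same meant no change of sign and a shift below 1.5 times the main value. A fall to 0 thus counted as the same, as for COL11A1 (3.23, and 0 within 20 kb). No paired analysis was possible because each mark and dose had 1 library. Keeping 1 gene of each overlapping pair, and the counts of positive differences, were settings chosen after seeing the data. H3K27ac ends at 0 µM (2 genes) numbered 1 within 500 bp (2.27%, against 21.8% of all genes). They numbered 4 within 2 kb and within 5 kb (9.09%, against 32.3% and 37.05%). At equal list lengths or with a score of at least 10 there was 1 (2.27%, against 24.97% and 21.1%). At starts only there was 1 (3.13%, against 30.6%), and with 1 gene per pair also 1. At 15 µM (1 gene) they numbered 2 within 5 kb (4.55%, against 24.6%) and 0 at starts or with 1 gene per pair. Those values of 0 were fixed in advance. COL5A2, the 1 gene marked at 15 µM, has no start in the promoter table and was the gene left out of its pair with COL3A1. The lost end became 0 with absence within 10 kb or equal lengths.

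H3K4me1 ends at 0 µM (19) numbered 11 within 500 bp (25%, against 26.9% of all genes) and 29 within 2 kb (65.9%, against 73.5%). They numbered 35 within 5 kb (79.55%, against 84.2%) and 6 with a score of at least 5 (13.6%, against 19.8%). At 15 µM (29) they numbered 18 within 500 bp (40.9%, against 27.7%) and 6 with that score (13.6%, against 18.5%). At starts they numbered 18 (56.3%, against 45.1%). Lost ends (2) fell to 1 with absence within 10 kb, and gained ends (5) to 1 with that and 3 at starts.

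Distinct H3K27ac summits numbered 32 and 24 (0 and 15 µM) within 20 kb, 189 and 138 within 100 kb, and 36 and 28 with the stricter score. H3K4me1 summits numbered 389 and 399, 1538 and 1627, and 237 and 233 in turn, so the ratio became 0.983 with the stricter score. The median scaled H3K4me1 difference was 0.29 within 20 kb and 0.0 with the stricter score, where 19 genes were above 0 (43.2%, against 49.5%). Positive H3K27ac differences numbered 6 within 20 kb (13.6%, against 20.2% of all genes).

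The share of H3K27ac summits with H3K4me1 was 33.3% at both doses at 500 bp, and 89.7% and 98.2% at 2 kb. The share with the other dose was 21.8% and 31.5% at 250 bp, and 53.9% and 68.5% at 1 kb.

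Single genes that reversed with the stricter score were COL27A1 (1.28) and COL9A3 (0.55) for H3K27ac, and COL17A1 (6.29), COL16A1 (1.12) and COL12A1 (-1.38) for H3K4me1. Within 20 kb COL28A1 (-2.25) and COL21A1 (-3.37) reversed for H3K4me1. The causes were not tested.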
